A study of Mus musculus with 10 samples.

Results

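The beta-catenin destruction complex was followed through the 10 genes that encode its scaffolds, kinases, ubiquitin ligase receptors and substrate: Apc, Apc2, Axin1, Amer1, Csnk1a1, Gsk3a, Gsk3b, Btrc, Fbxw11 and Ctnnb1. They were chosen by gene symbol and not by a measured value, though earlier results of these data were known. All 10 were found in every table, among 26764 gene symbols in all. RNA sequencing covered 10 mouse libraries. 3 were made from cultured OPCs (oligodendrocyte precursor cells, from which myelinating cells arise) of Olig2-Cre:Apc-fl/fl mice, in which Cre made under Olig2 control deletes Apc, and 3 from OPCs of littermates with the genotype Apc-fl/fl, here called wild type as in the labels. Both sets of OPCs had been immunopanned and kept for 3 days in medium with PDGFAA, a mitogen for these cells. The other 4 libraries were sorted from spinal cord of mice with EAE (experimental autoimmune encephalomyelitis, a model of multiple sclerosis) at day 18 after induction. 1 holds CD4+ cells labelled Th1, and 3 hold CD11b+Gr-1+NK1.1+ cells labelled cytotoxic macrophages. All 4 came from Pdgfra-CreER:Apc-fl/fl mice, whose inducible Cre is made under control of an OPC gene and not of an immune gene. All 10 libraries therefore carry floxed Apc, and the sorted cells allow no comparison of genotypes. The labels give no age, no pooling of animals and no dosing of the inducible Cre.

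The complex keeps beta-catenin scarce when no Wnt ligand is present. Axin and APC hold beta-catenin beside the kinases CK1-alpha and GSK3, which phosphorylate its amino terminus, and the F-box proteins beta-TrCP1 and beta-TrCP2 then bind the phosphorylated stretch and pass the protein to the SCF ubiquitin ligase and the proteasome. Where APC is lost, beta-catenin escapes this step, enters the nucleus and drives TCF/LEF target genes, among them the feedback genes Axin2 and Notum. In the oligodendrocyte lineage, sustained Wnt signalling is known to hold back differentiation.

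The stretch of Ctnnb1 on which the kinases and the beta-TrCP proteins act is shown because phosphorylation and ligase binding meet there. It is coding sequence, codons 29 to 49, at chr9:120950593-120950655 (GRCm38, plus strand), read from the GENCODE M21 transcript, and the capitals mark codons 33, 37, 41 and 45, the serine and threonine codons that GSK3 and, for the last, CK1-alpha phosphorylate.
Ctnnb1: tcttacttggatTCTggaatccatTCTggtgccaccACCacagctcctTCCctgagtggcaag

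For the OPCs the authors' deposited table is a finished comparison of 19333 genes and gives no value per library, so depth per OPC library is unknown and no SD could be computed. The table does not name its numerator. The sign was turned so that the feedback targets Axin2, Notum, Sp5 and Lef1 are higher in Apc-deleted OPCs, and their direction is therefore no result. The labelled cell types were checked against their marker genes. In the authors' deposited table all 7 OPC markers were present, but the 8 neuron markers summed to 341535 mean normalized counts against 36454 for the OPC markers. In the library labelled Th1, 1 of 7 T cell markers in the table (Lck, with 422 reads) and 0 of 5 Th1 markers exceeded 3 reads. No read of Cd3e, Cd4 or Tbx21 was found there. In the same library 6 of 8 neutrophil markers and 6 of 8 macrophage and monocyte markers exceeded 3 reads, with sums of 24464 and 11836 TPM, and their part in the comparison with the macrophage libraries was not tested. In the macrophage libraries the neutrophil markers summed to between 423117 and 426343 TPM (a level scaled to the library and corrected for transcript length). The macrophage and monocyte markers summed there to between 29115 and 29675 TPM. S100a8 alone held between 308610 and 312567 TPM of the neutrophil sum, and Lyz2 between 22561 and 22805 TPM of the other. Sums led by 1 gene do not measure cell makeup. Both the Th1 and the macrophage name are kept as labels only. In the authors' deposited OPC table Gpr17 of the OPC list and Myrf of the oligodendrocyte list fell in Apc-deleted OPCs, and the part of cell makeup in the results was not tested.

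The OPC comparison asked how gene expression differs once Apc is deleted. Of the 10 members, 0 passed an adjusted p of 0.05 by the authors' deposited table, beside 0.548% of all genes. At an unadjusted p under 0.05 the count was again 0 of 10, beside 3.63% of all genes in the authors' deposited table. No source used here names the tool behind those p-values, and no other tool could be run without values per library. 3 members pointed higher and 7 lower in Apc-deleted OPCs, with a median log2 fold change of -0.05 against 0.00 over all genes of the authors' deposited table. The 95% intervals of all 10, computed from each log2 fold change and its SE in the authors' deposited table with a normal approximation, lay between 0.751 and 1.33 times the wild-type level. In these bulk samples fewer cells of a type and less RNA per cell cannot be told apart.

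**Figure D1:**
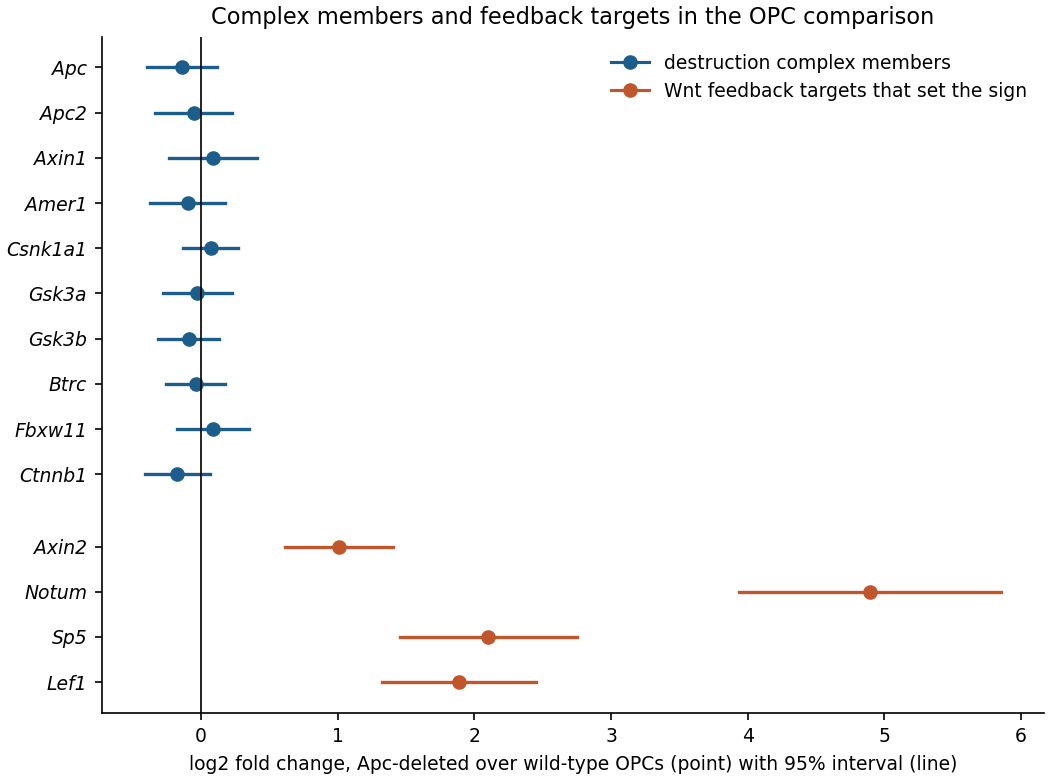
Log2 fold change in Apc-deleted over wild-type OPCs, from the authors' deposited table, for the 10 complex members (blue) and the 4 feedback targets that set the sign (orange) with normal 95% intervals. The intervals of all 10 members cross 0, and the point values run between -0.17 for Ctnnb1 and 0.09 for Fbxw11.

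Among the scaffolds, Apc itself is the gene the Cre allele targets. Apc (chromosome 18, 34220924 to 34322552) binds beta-catenin and Axin through repeats in its middle part. Its mean of 13477 normalized counts and its fold change in the authors' deposited table imply 12829 in Apc-deleted and 14125 in wild-type OPCs, with equal numbers of libraries assumed. For Apc the authors' deposited table gives a log2 fold change of -0.14 (SE 0.13, adjusted p = 0.999993). On the linear scale this is 0.908 times the wild-type level with an interval of 0.761 to 1.08, so a gene-level fall below 0.761 times lies outside it. A count over the whole gene does not isolate the floxed exons, so this value checks neither the deletion nor the labels. Apc2 (chromosome 10, 80295977 to 80318263), the APC homolog known mainly from the nervous system, averaged 2840 normalized counts and stood at -0.05 (SE 0.14) on the log2 scale, per the authors' deposited table. The neuron markers, of which 0 of 8 passed the threshold, had a median of -0.07 in the authors' deposited table, and their part in the level of Apc2 was not tested. Axin1 (chromosome 17, 26138688 to 26195811), the constitutive scaffold, stood at 0.09 (SE 0.17) per the authors' deposited table and had the widest interval of the members, 0.849 to 1.33 times wild type. Amer1 (chromosome X, 95420318 to 95444872), the membrane-associated partner of APC once called WTX, stood at -0.10 (SE 0.14) in the authors' deposited table.

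No kinase of the complex passed either. Csnk1a1 (chromosome 18, 61555274 to 61590061) encodes CK1-alpha, the kinase that primes beta-catenin. It had a log2 fold change of 0.07 (SE 0.10) in the authors' deposited table, the smallest SE among the members and 0.854 times the median SE of genes with a similar mean. Gsk3b (chromosome 16, 38089001 to 38246084) stood at -0.09 (SE 0.11) and Gsk3a (chromosome 7, 25228258 to 25237851) at -0.03 (SE 0.13) in the authors' deposited table. Both encode GSK3, which phosphorylates the primed substrate. The interval of Gsk3b was 0.806 to 1.10 times wild type and that of Gsk3a 0.824 to 1.17 times, and the intervals overlapped.

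Neither the ligase receptors nor the substrate passed. Btrc (chromosome 19, 45363734 to 45530013) and Fbxw11 (chromosome 11, 32642724 to 32746816), the genes of beta-TrCP1 and beta-TrCP2, had log2 fold changes of -0.04 (SE 0.11) and 0.09 (SE 0.13) in the authors' deposited table. Ctnnb1 (chromosome 9, 120929216 to 120960507), which encodes beta-catenin, had the lowest p of the members, 0.162 before adjustment, at a log2 fold change of -0.17 (SE 0.12, adjusted p = 0.999993) per the authors' deposited table. The implied means from the authors' deposited table were 696 normalized counts in Apc-deleted and 784 in wild-type OPCs. Its interval, 0.751 to 1.05 times wild type, reaches further below the wild-type level than above it. Protein levels, where the complex acts, were not measured.

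The SEs of the members lay between 0.823 and 1.16 times the median SE of the 200 genes nearest in mean level, in the authors' deposited table. The plot of level against fold change places the members at means between 555 and 14646 normalized counts, with genes past the threshold above and below them.

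**Figure D2:**
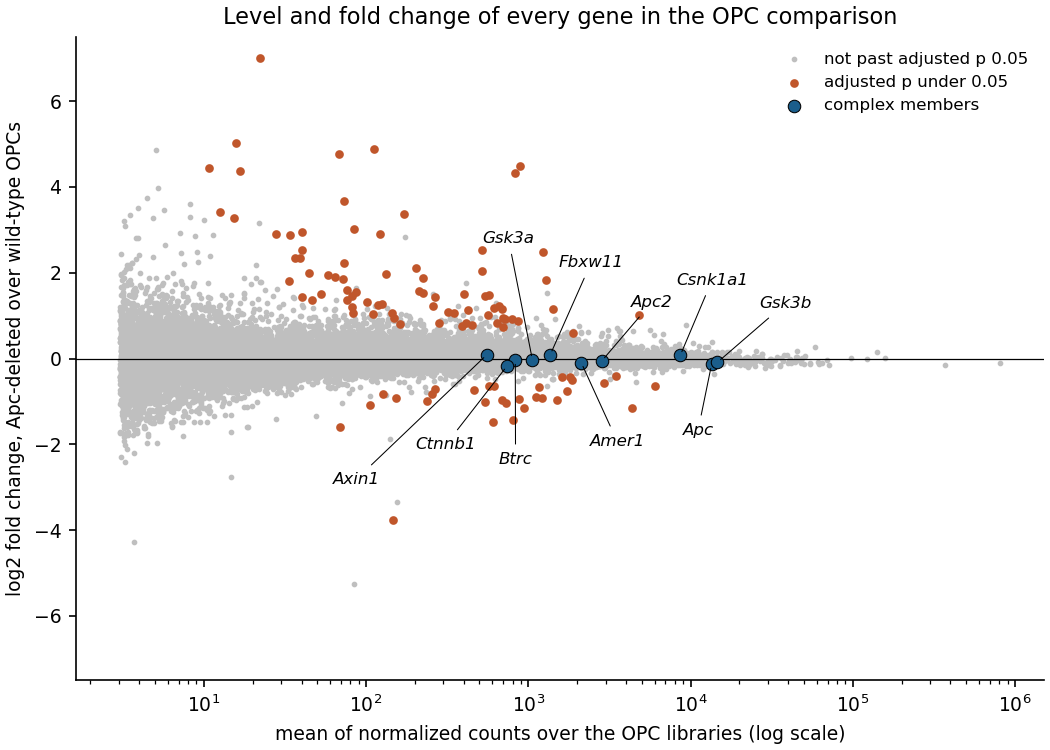
Mean of normalized counts (horizontal axis, log scale) against log2 fold change in Apc-deleted over wild-type OPCs (vertical axis) for all 19333 genes of the authors' deposited table. The 10 members (blue) lie between -0.17 and 0.09, among them Apc at 13477 and Gsk3b at 14646 normalized counts, and the 106 genes past an adjusted p of 0.05 (orange) lie outside that band.

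The genes that work beside the complex were read from 9 lists chosen with earlier results of these data known. Of all genes in the authors' deposited table, 0.393% rose and 0.155% fell in Apc-deleted OPCs, and the counts below stand beside that. Among paralogs and close partners of the members, 1 of 11 measured genes rose, 0 fell and 10 did not pass per the authors' deposited table, with a list median of 0.03. The gene that rose was Axin2, the Wnt-induced twin of Axin1, at 1.01 (SE 0.20, adjusted p = 0.000324) in the authors' deposited table, and it is one of the genes that set the sign. The partners with the next smallest p were Jup, which encodes the beta-catenin relative plakoglobin, at 0.42 (SE 0.25), and Csnk1g2, a CK1-gamma kinase, at 0.26 (SE 0.19) in the authors' deposited table. Neither passed.

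The phosphatase, ligase and turnover genes showed no call. PP2A removes phosphates within the complex, and 0 of 10 measured subunits rose or fell, with a median of -0.01 and Ppp2r1b at 0.27 (SE 0.23) and Ppp2r5a at 0.08 (SE 0.13) in the authors' deposited table. The SCF core and its NEDD8 cycle gave 0 of 7 in either direction with a median of 0.04, and Uba3 and Nedd8 stood at 0.13 (SE 0.13) and 0.10 (SE 0.13) in the authors' deposited table. Among genes that set the turnover of Axin, such as the tankyrases, 0 of 9 passed in the authors' deposited table, with a median of -0.01. The ubiquitin ligase genes Siah1b at 0.61 (SE 0.34) and Siah2 at 0.53 (SE 0.31) had the lowest p of that list in the authors' deposited table, and the tankyrase genes Tnks and Tnks2 stood at -0.01 (SE 0.11) and -0.05 (SE 0.12) in the authors' deposited table. Of 12 microtubule and polarity partners of APC none passed, with a median of -0.04 and Scrib and Iqgap1 at 0.23 (SE 0.18) and 0.15 (SE 0.13) in the authors' deposited table. The end-binding gene Mapre1, whose protein carries APC on growing microtubule tips, stood at 0.13 (SE 0.12) there.

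Calls appeared upstream and downstream of the complex. In the receptor and Dishevelled arm 2 of 13 measured genes rose, 0 fell and 11 did not pass per the authors' deposited table, with a median of 0.07. Rnf43, a ubiquitin ligase that removes Frizzled receptors, rose by 2.89 (SE 0.39, adjusted p = 3.48e-10) and Dact1, a Dishevelled-binding modulator, by 1.07 (SE 0.21, adjusted p = 0.000298) in the authors' deposited table. The paralog of Rnf43, Znrf3, at 0.65 (SE 0.26, adjusted p = 0.773), and the coreceptor gene Lrp6 at -0.11 (SE 0.12) followed in the authors' deposited table without passing. Among nuclear partners of beta-catenin 1 of 18 rose, 1 fell and 16 did not pass per the authors' deposited table, with a median of -0.01. Lef1 rose by 1.89 (SE 0.29, adjusted p = 8.23e-08) and is also a sign-setting gene, whereas Tcf7l2 had a log2 fold change of -0.43 (SE 0.12, adjusted p = 0.0499) in the authors' deposited table. The corepressor gene Tle1 at 0.83 (SE 0.24, adjusted p = 0.0839) and the coactivator gene Bcl9 at 0.19 (SE 0.12) missed the threshold of the authors' deposited table. Beta-catenin also links cadherins to the cytoskeleton, and of 10 such adhesion genes, whose median was 0.00, 1 rose, 0 fell and 9 did not pass. The gene in question was Cdh3 (P-cadherin) at 3.67 (SE 0.50, adjusted p = 4.72e-10) in the authors' deposited table. Cdh4 at 0.22 (SE 0.10) and the p120-catenin gene Ctnnd1 at 0.57 (SE 0.29) did not pass there. Of the 20 feedback targets 8 rose, 0 fell and 12 did not pass, with a median of 0.94 in the authors' deposited table. 4 of those 8 set the sign, Axin2 and Lef1 as above and Notum, a secreted Wnt deacylase, at 4.90 (SE 0.49) and the transcription factor gene Sp5 at 2.10 (SE 0.33) in the authors' deposited table. The 4 that did not set it were Rnf43, Tnfrsf19 (1.83, SE 0.27), Wif1 (1.51, SE 0.29) and Nkd1 (2.47, SE 0.50) in the authors' deposited table. After them Lgr5 at 0.92 (SE 0.31) and Znrf3 had the smallest p in the authors' deposited table. Some markers of macrophages and monocytes moved in the same comparison, with 2 of 6 measured genes higher, Lyz2 and Cd68, and a list median of 1.66 in the authors' deposited table. Adgre1 at 1.87 (SE 0.65) and Cd14 at 1.78 (SE 0.61) did not pass there. Csf1r at 0.01 (SE 0.16) and Itgam at 0.12 (SE 0.18) did not pass either. The part of these markers in the counts above was not tested.

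**Figure D3:**
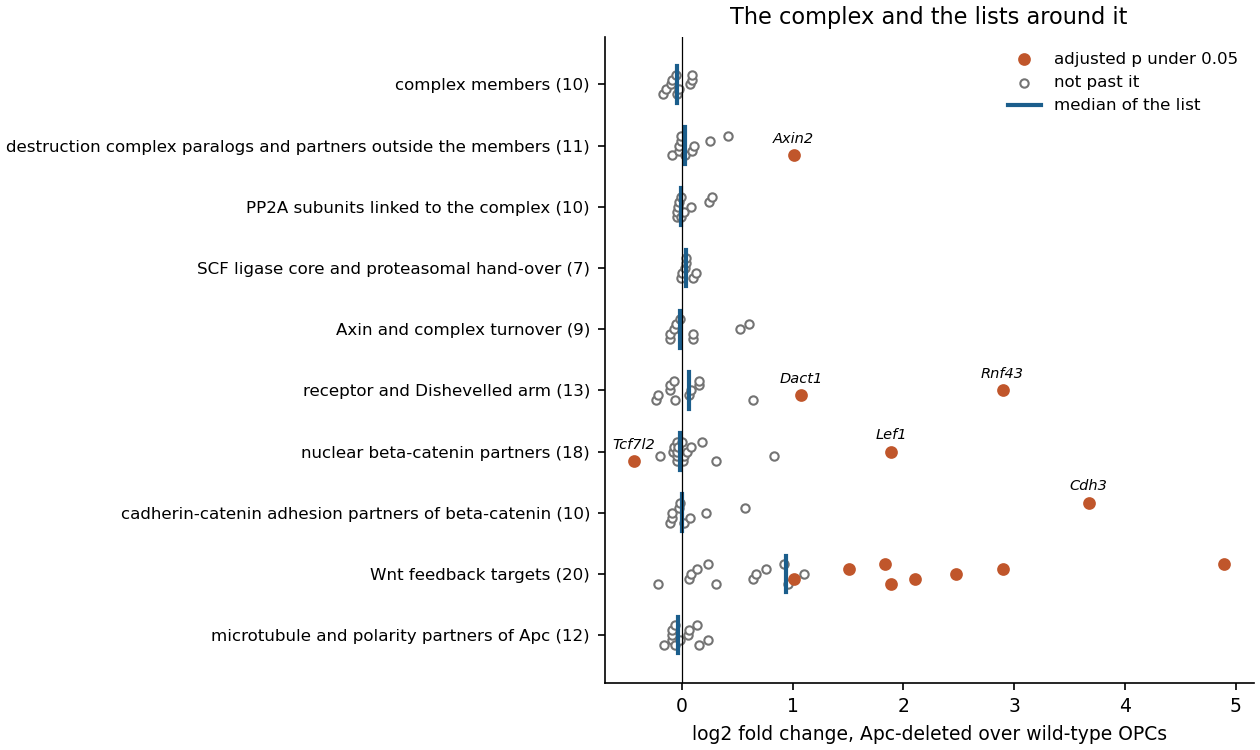
Log2 fold change in Apc-deleted over wild-type OPCs for the 10 members and for each list around the complex (measured genes in brackets), from the authors' deposited table. Filled orange points passed an adjusted p of 0.05, open points did not, and blue bars are list medians, which lie within 0.07 of 0 for all lists but the feedback targets at 0.94.

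Levels between members can be compared once counts are divided by exon length. Per kilobase of merged exon in the authors' deposited table, Gsk3b was first with 1756 normalized counts, followed by Csnk1a1 with 1348 and Apc with 1025. These 3 lay in the 94.4th to 97.0th percentile of all genes on that scale. Gsk3a followed with 469, Fbxw11 with 327, Apc2 with 309.6, Amer1 with 249.6 and Ctnnb1 with 204 normalized counts per kilobase of the authors' deposited table. Axin1 with 147 and Btrc with 138 normalized counts per kilobase were lowest in the authors' deposited table, in the 70.2nd and 69.2nd percentile. No spread over libraries stands behind this order, so neighbours could not be tested. In the authors' deposited table, with the longest transcript in place of merged exons Csnk1a1 came first at 2116 and Btrc seventh at 274, and the order of the other 8 among themselves stayed as given. This length was added after the data were seen.

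In the macrophage libraries, which summed to between 23174908 and 23564215 reads, the members followed another order, with Csnk1a1 in the 83.5th and Btrc in the 31.8th percentile of detected genes by TPM. Csnk1a1 had 9.04, 8.73 and 8.66 TPM in the 3 libraries (8.81 ± 0.202, SD, n = 3). Gsk3a had 4.61, 5.38 and 5.84 TPM (5.28 ± 0.621), and Ctnnb1 had 2.97, 3.20 and 3.06 TPM (3.08 ± 0.116). These 3 did not overlap with each other or with any other member. Gsk3b had 1.42, 1.40 and 1.49 TPM (1.44 ± 0.0473) and Axin1 had 1.37, 1.43 and 1.46 TPM (1.42 ± 0.0458), and this pair did not differ beyond its spread. Fbxw11 had 0.93, 0.94 and 0.94 TPM. Apc had 0.46, 0.38 and 0.40 TPM (0.413 ± 0.0416), from 225, 197 and 204 reads, and stood seventh of the 10 members. Amer1 had 0.20, 0.23 and 0.26 TPM and Btrc had 0.21, 0.19 and 0.23 TPM, again a pair that overlapped. Apc2 had 1 read in 1 library and 0 in the other 2, where 0 reads, at a floor of 3, allow up to 0.127 or 0.128 CPM (reads scaled to a common library total).

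**Figure D4:**
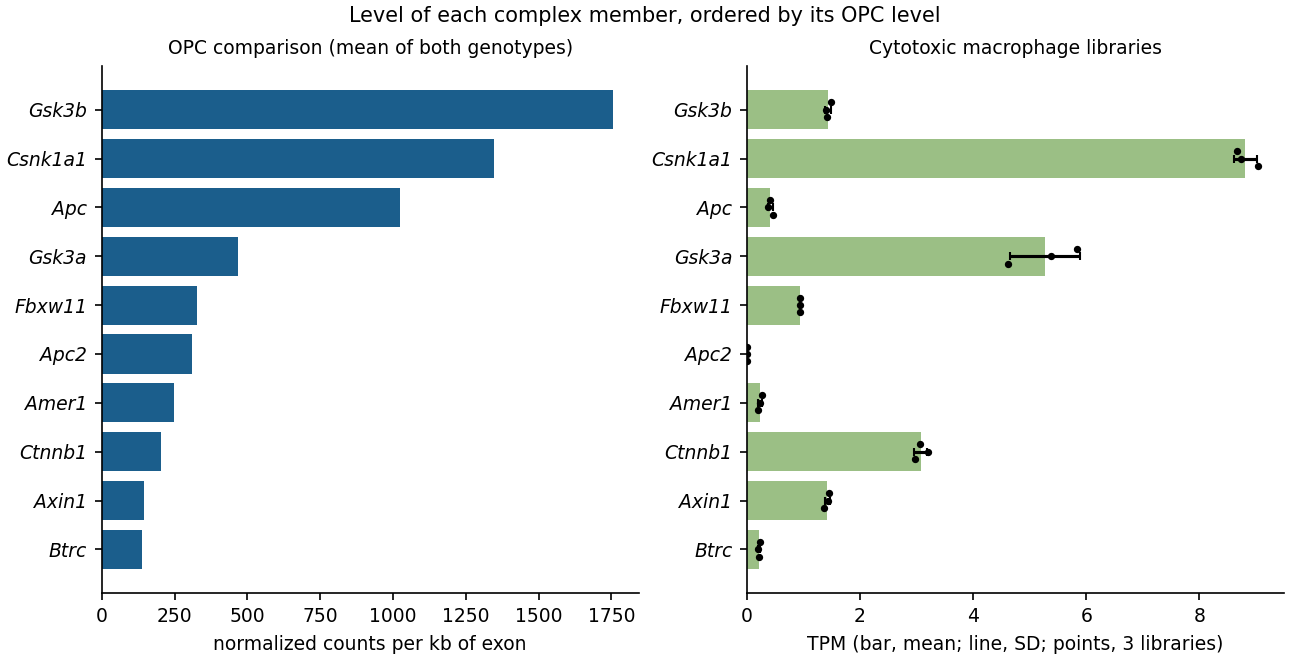
Level of each member in the authors' deposited OPC table (left, normalized counts per kilobase of exon, mean of both genotypes) and in the macrophage libraries (right, TPM, bars are means of 3 libraries, lines the SD, points the libraries). The scales differ between panels and only the order within each can be read: Gsk3b leads on the left at 1756, and Csnk1a1 and Gsk3a on the right at 8.81 and 5.28 TPM.

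The paralog pairs were balanced differently in the OPC table and in the macrophage libraries. Gsk3b exceeded Gsk3a 3.75-fold per kilobase in the authors' deposited OPC table, whereas in the macrophage libraries Gsk3b reached 0.274 ± 0.0292 times the TPM of Gsk3a (SD, n = 3), between 0.255 and 0.308. Gene length cancels from plain counts of the same pair only if both tables counted the same transcripts. In plain counts the ratio of Gsk3b to Gsk3a was 13.8 in the authors' deposited OPC table and 1.18 ± 0.129 in the macrophage reads (SD, n = 3). These tables were quantified separately and on different gene models, so the contrast is a description with no test. The longest run of bases shared by the transcripts compared, 1 for each gene with 1750 bases for Gsk3b and 2260 for Gsk3a, was 17 bases, against reads of 150 bases. Longer untranslated parts of Gsk3b were not compared. Their coding sequences were 72.9% identical over aligned bases. A stretch of 90 coding bases around the longest run shared by the coding sequences is shown to let the eye see how often they differ. It begins before the activation loop of the kinase and runs into it. The stretch covers coding bases 570 to 659 of Gsk3b (chromosome 16) and 759 to 848 of Gsk3a (chromosome 7) in the GENCODE M21 transcripts on GRCm38. The capitals mark the 17 positions at which the sequences differ.
Gsk3b: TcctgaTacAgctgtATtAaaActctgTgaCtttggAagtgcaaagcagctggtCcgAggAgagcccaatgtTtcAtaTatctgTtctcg
Gsk3a: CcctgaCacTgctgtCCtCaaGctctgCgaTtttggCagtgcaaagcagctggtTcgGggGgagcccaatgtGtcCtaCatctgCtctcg

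The other pairs differed less between the tables or were missing from one. Fbxw11 exceeded Btrc 2.37-fold per kilobase in the authors' deposited OPC table (1.24-fold with the longest transcripts) and 4.49 ± 0.433-fold in TPM in the macrophage libraries (SD, n = 3), so beta-TrCP2 transcripts led in both. Coding sequences of Fbxw11 and Btrc were 75.4% identical, and the longest run shared by their transcripts was 22 bases. Apc2 stood at 0.302 times Apc per kilobase in the authors' deposited OPC table and was near 0 in the macrophage libraries. For Axin2 and Axin1, where Axin2 is one of the genes that set the sign and the direction is therefore no result, values in the authors' deposited table imply 1.16 Axin2 per Axin1 per kilobase in Apc-deleted OPCs and 0.615 in wild-type OPCs, and 751 normalized counts of Axin2 in Apc-deleted against 373 in wild-type OPCs. The difference between these ratios was not tested, since the table gives no covariance. Axin2 has no value in any of the 4 sorted libraries and was taken as 0.

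The genes around the complex were read in the macrophage libraries too. Of 22064 genes, between 13655 and 13739 had a read in a given macrophage library. Of those detected, 10.8% to 11.4% had 3 reads or fewer. The share of all genes over 3 reads in every macrophage library was not computed, so the counts below are not a result about the lists. All 10 PP2A subunits exceeded 3 reads in each macrophage library, with Ppp2r5a at 24.9 ± 0.293 and Ppp2ca at 18.7 ± 0.266 TPM the highest (SD, n = 3). In the SCF list of 7 genes Nedd8 at 247.8 ± 15.97 and Rbx1 at 81.5 ± 2.13 TPM were highest (SD, n = 3), while the cullin Cul1 averaged 3.15, Usp7 1.69, Uba3 1.51 and Cand1 0.37 TPM. The highest turnover genes were Trim11 at 5.48 ± 0.165 and Siah2 at 5.04 ± 0.204 TPM, and the highest microtubule and polarity partners Iqgap1 at 15.9 ± 0.189 and Diaph1 at 4.52 ± 0.143 TPM (SD, n = 3). Csnk1e at 6.28 ± 0.215 and Csnk1g2 at 4.57 ± 0.0902 TPM, genes of further CK1 kinases, led the close partners, and Csnk2a1 at 6.24 ± 0.316 and Frat2 at 2.24 ± 0.237 TPM the receptor arm (SD, n = 3). Nuclear partners were led by the corepressor Tle5 at 114 ± 3.25 TPM and the chromatin remodeller Smarca4 at 3.58 ± 0.0737 TPM (SD, n = 3). Tcf7, Lef1 and Tcf7l1, the TCF/LEF factors other than Tcf7l2, averaged 0.0233, 0.0167 and 0 TPM, Tcf7l1 having no value there. Of 10 adhesion partners 2 exceeded 3 reads in each macrophage library, Ctnna1 at 2.11 ± 0.135 and Ctnnd1 at 0.16 ± 0.0265 TPM (SD, n = 3). Of 20 feedback targets 7 did so, led by Cd44 at 21.7 ± 0.188 and Bambi at 4.10 ± 0.123 TPM (SD, n = 3), and Notum, Sp5 and Rnf43 have no value and were taken as 0.

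The library labelled Th1 held few reads of the complex. It summed to 3051730 reads, of which 43 fell on the 10 members, where the macrophage libraries scaled to the same total would give 498.5. Apc had 16 reads against 27.2 ± 2.15 in the scaled macrophage libraries, Gsk3b 12 against 70.3 ± 2.39 and Csnk1a1 7 against 217 ± 4.61 (SD, n = 3). Ctnnb1 had 3 reads, Axin1 and Fbxw11 had 2 each and Gsk3a had 1, while Apc2, Amer1 and Btrc have no value and were taken as 0, which at a floor of 3 reads allows up to 0.983 CPM. For Gsk3a the ratio of CPM to the macrophage libraries was 0.0167 with a counting interval of 0.000422 to 0.0930 (95%, exact), and for Apc it was 0.588 with an interval of 0.334 to 0.963. On the TPM scale, which corrects for length, Gsk3b at 0.55, Csnk1a1 at 0.52 and Apc at 0.43 were the highest members in this library, against 1.44, 8.81 and 0.413 in the macrophage libraries. Intervals and limits of this kind cover counting error only.

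**Figure D5:**
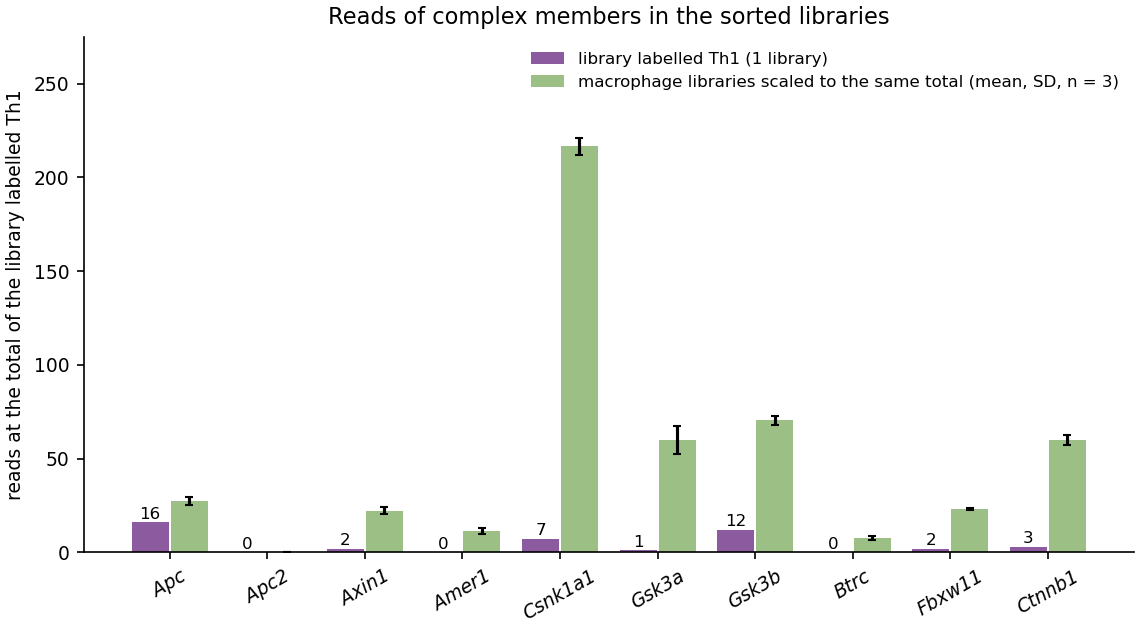
Reads of each member in the library labelled Th1 (purple, 1 library, count printed) and in the 3 macrophage libraries scaled to its total of 3051730 reads (green, mean with SD). Apc has 16 reads against 27.2, and Csnk1a1 differs most in reads, with 7 against 217.

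A test across all genes placed these members within a library that differed from the others almost everywhere. By edgeR's quasi-likelihood test (adjusted p under 0.05 and at least 4-fold) 6 of 9 tested members were lower in the library labelled Th1 and 0 were higher, beside 68.2% of the 11447 genes tested that passed in either direction, 54.6% that were lower and 13.7% that were higher. Those 6 were Amer1, Btrc, Csnk1a1, Ctnnb1, Fbxw11 and Gsk3a, and Apc2 had too few reads to enter. The count is near the background and is not a result about the members. It also turned on the scaling, since 2 members passed with DESeq2 size factors, where Gsk3a was lower and Apc higher. The share of all calls that were lower was 79.9% with TMM, 63.1% with DESeq2 size factors, 88.1% with library totals alone and 50.1% by DESeq2. Csnk1a1, with a log2 fold change of -3.45 (adjusted p = 2.12e-09) by edgeR, had -1.94 with DESeq2 size factors and -4.95 with library totals. For Apc the values were 0.73 with TMM, 2.25 with DESeq2 size factors and -0.77 with library totals, so no direction can be given. The median log2 fold change of all genes tested was itself -5.61 with TMM, -4.32 with DESeq2 size factors and -6.25 with library totals, fitted values that depend on many genes without a read. Relative to it Csnk1a1 stood at 2.16, 2.39 and 1.30, and Apc at 6.34, 6.57 and 5.49. With no filter on low counts the median was -4.42, and relative to it Csnk1a1 stood at 0.53 and Apc at 4.71. By the DESeq2 test the median was -0.77, with Csnk1a1 at -1.33 and Apc at 2.85 relative to it. The place of Csnk1a1 against the median therefore turned on the method. Having 3 reads or fewer was common in this library, at 75.8% of the genes tested and 7 of the 10 members. The spread in this test comes from the macrophage libraries alone.

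Genes of the SCF list differed widely among themselves in that library. Skp1a had 4524 reads, Rbx1 3196, Cul1 2934 and Nedd8, which activates the cullin, 815, whereas the list's other 3 genes, Usp7, Cand1 and Uba3, had 1, 1 and 0 reads. The receptor genes Btrc and Fbxw11 had 0 and 2 reads. In TPM, Cul1 reached 310.2 in the library labelled Th1 and 3.15 ± 0.0208 in the macrophage libraries (SD, n = 3), and Skp1a 1069 and 32.7 ± 0.680 TPM. On the same scale Btrc, which has no value there, was taken as 0 and Fbxw11 had 0.15 TPM in the library labelled Th1, against 0.21 ± 0.02 and 0.937 ± 0.00577 in the macrophage libraries (SD, n = 3). Usp34, a deubiquitinase of Axin, had 54.1 TPM against 1.04 ± 0.0265, and Csnk2a1, the catalytic subunit of casein kinase 2, had 88.0 TPM against 6.24 ± 0.316 (SD, n = 3). With 1 library these values have no replicate check.

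Across the 4 sorted libraries the genes with the pattern most like Apc were Lima1, Slco2b1 and Gna12. Their distances to Apc in log2(TPM + 1) were 0.0750, 0.0889 and 0.0938 among 6140 genes with a read in each library. Lima1 had 0.39 TPM in the library labelled Th1 and 0.43, 0.43 and 0.42 TPM in the macrophage libraries, where Apc had 0.43 TPM and 0.46, 0.38 and 0.40 TPM. With so few libraries and reads this likeness is one of level alone.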

How the data were processed

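Per the submitters' processing notes the genome build was GRCm38; no aligner or counting tool is named there. For OPCs the authors deposited, per the file headers, a mean of normalized counts (a signal), log2 fold changes with SE, a statistic (a score), p-values and adjusted p-values, used as deposited. For each sorted library the authors deposited TPM and read counts, which are estimated counts since only 79.8% to 85.6% were exactly whole and the rest held fractions. They were rounded for testing and blanks taken as 0. The columns of the macrophage files carry no replicate label, so they were given to the group. 8 columns (FPKM and normalized counts) were not used.

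Intervals are the deposited log2 fold change with its SE, by a normal approximation at 95%. Levels per kilobase used merged exons of GENCODE M21 basic models (99.8% of OPC identifiers matched). The library labelled Th1 was tested against the macrophage libraries with edgeR 4.0.16 (quasi-likelihood, TMM, filterByExpr, Benjamini-Hochberg), checked on simulated counts; DESeq2 1.42.0, Python 3.11.15, pandas 2.3.3, scipy 1.17.1 and Biopython 1.88 were also used. The macrophage libraries differed by more than sampling noise (chi-square per degree of freedom 1.29 to 2.53) and count as 3, but nothing says they came from separate animals, so SDs and p-values may measure technical spread. Named genes are all members, the sign-setting genes, and in each list the genes past the threshold, the next 2 by p and, in sorted libraries, the 2 highest by TPM. Tnks, Tnks2, Mapre1, Skp1a, Cul1, Usp7, Uba3, Cand1, Usp34 and the TCF/LEF factors in sorted cells were named after their values were seen. Members and lists were chosen with earlier results of these data known. Neighbours were called not separated where means differed by less than the larger SD.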

Additional observations from a re-analysis of the deposited data

How the results depend on the processing

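For the OPCs no member passed under adjusted p-values recomputed over all genes, with genes of at least 10 mean normalized counts, or at an unadjusted p. The median log2 fold change of genes of at least 10 mean normalized counts was 0.00189. It was smaller than the change of any member, so subtracting it could turn no member's direction. No paired analysis was possible because the OPC table gives no value per library, and leaving out OPC replicates was not possible for the same reason. In the library labelled Th1 against the macrophage libraries, 6 members passed with edgeR and TMM, 2 with DESeq2 size factors, 2 by the DESeq2 test, 7 with no filter on low counts, 8 with library totals alone, and 5 without any 1 of the macrophage libraries, when Fbxw11 fell just under 4-fold (between -1.97 and -1.95). Over all genes 7812 passed, 4765 by the DESeq2 test and between 7778 and 7790 without 1 macrophage library. Reversed directions were those of Apc (-0.77 with library totals) and Gsk3b (0.46 with DESeq2 size factors); the cause was not tested. Without the 10 genes of highest TPM every nonzero macrophage level rose 1.98-fold. This is a shared rescaling, so the unchanged order is no check of it. All 30 levels without 1 library stayed within 1 SD, but with 3 libraries they could not do otherwise, so this is no check either. The library labelled Th1 is limited by its depth, where 3 reads equal 0.983 CPM, and by the number of genes detected. 6550 genes had a read there, against between 13655 and 13739 in the macrophage libraries. The part of depth in that gap was not tested.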
